A study of Drosophila melanogaster with 12 samples.

Results

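Structural cuticle protein genes encode the proteins that are secreted by the epidermis and packed around chitin to form the insect cuticle. They were chosen here by their FlyBase symbols alone, as every gene whose symbol is Cpr followed by a digit, starts with Lcp, Pcp, Ccp84 or Edg, or is Acp1 or Acp65Aa. The rule gave 100 genes of the 17707 in the count table. RNA of whole *Drosophila melanogaster* had been sequenced in 4 groups of 3 libraries each. CK72h and CK96h were control flies kept on ordinary sucrose, corn and yeast medium for 72 h and 96 h (day 3 and day 4). T72h and T96h were flies kept for the same times on that medium with erythritol, a sugar alcohol, added at 1 mol/L. The study placed newly emerged flies on these media and pooled flies for each library, and it states neither strain nor sex.

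Most proteins of this kind carry the Rebers and Riddiford sequence, which binds chitin, and how stiff or soft a cuticle becomes depends in part on which of them are laid down. The epidermis makes a new cuticle before each moult under the control of the moulting hormone ecdysone, and in the adult it goes on adding layers for some days after emergence. The prefixes record where a protein was first found. Cpr stands for cuticular protein with that chitin-binding sequence, Lcp for larval and Pcp for pupal cuticle protein, Acp for adult cuticle protein, Edg for ecdysone-dependent gene, and the Ccp84A genes form a cluster of cuticle genes in region 84A. Cuticle proteins also line the trachea and the foregut and hindgut, and some of them make up the corneal lens of the eye.

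The 100 genes lie on 3L (48), 2R (27), 3R (14), 2L (7) and X (4), and 98 are protein-coding and 2 are pseudogenes. In most symbols the number and letter name the cytological region, and 50 genes sat in regions so named with at least 4 of them. Region 65A held 19 within 31.2 kb (dm6, 3L:6130386-6161589) and region 84A held 8 within 20.5 kb (3R:6684445-6704903). The others were 49A with 8, 47E with 7, and 64A and 76B with 4 each. Lcp1, Lcp1Psi, Lcp2, Lcp3 and Lcp4, whose symbols carry no region, made a further cluster of 5 within 8.4 kb (2R:8430115-8438495). Their summed exon lengths ran from 263 to 4525 bases with a median of 800.5.

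Library totals ran from 19855575 to 23327826 counts, and levels are given in CPM, a gene's counts per 1000000 counts of the library after scaling by TMM factors, as mean ± SD over n = 3 libraries. At this depth 1 count is worth 0.0418 to 0.0507 CPM. Mitochondrial transcripts took 7.29% to 16.5% of a library, the highest share being that of T72h replicate 3, which also differed most from the other libraries of its group. All 12 libraries and 13179 genes entered 1 quasi-likelihood fit in edgeR, with Benjamini-Hochberg adjusted p-values. Calls required a shift of 1.5 or more on the log2 scale, in either direction, together with an adjusted p below 0.05. The spread between libraries of a group was small (coefficient of variation 4.06%), all p-values rest on it, and nothing in the labels shows that it covers the spread between separate cultures. An exact permutation test of 1 gene, with 3 libraries a group, cannot go below p = 0.1.

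Transcripts of these genes were found in adult flies of every group, but as a small share of the RNA. Together the 100 genes took 465 ± 9.47 CPM in CK72h but 362 ± 3.89 CPM in T72h, and 467 ± 3.08 CPM in CK96h but 233 ± 5.76 CPM in T96h. The summed level in erythritol-fed flies was thus lower by a factor of 1.28 at 72 h and 2.01 at 96 h, and the libraries of the compared groups did not overlap. Under the other scalings the factor was 1.25 to 1.53 at 72 h, highest with library totals, and 1.91 to 2.01 at 96 h. A count was present for 86 of the 100 genes in CK72h and for 78 in T72h, and for 86 in CK96h and 79 in T96h. More than 3 counts over the group were found for 78 genes in each control group, 53 in T72h and 58 in T96h. Cpr12A, Cpr57A, Cpr65Aw, Cpr65Ax1, Cpr67Fb and Lcp65APsi had no count in any of the 12 libraries. In whole-body RNA, fewer epidermal cells and less RNA per cell cannot be told apart.

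**Figure D1:**
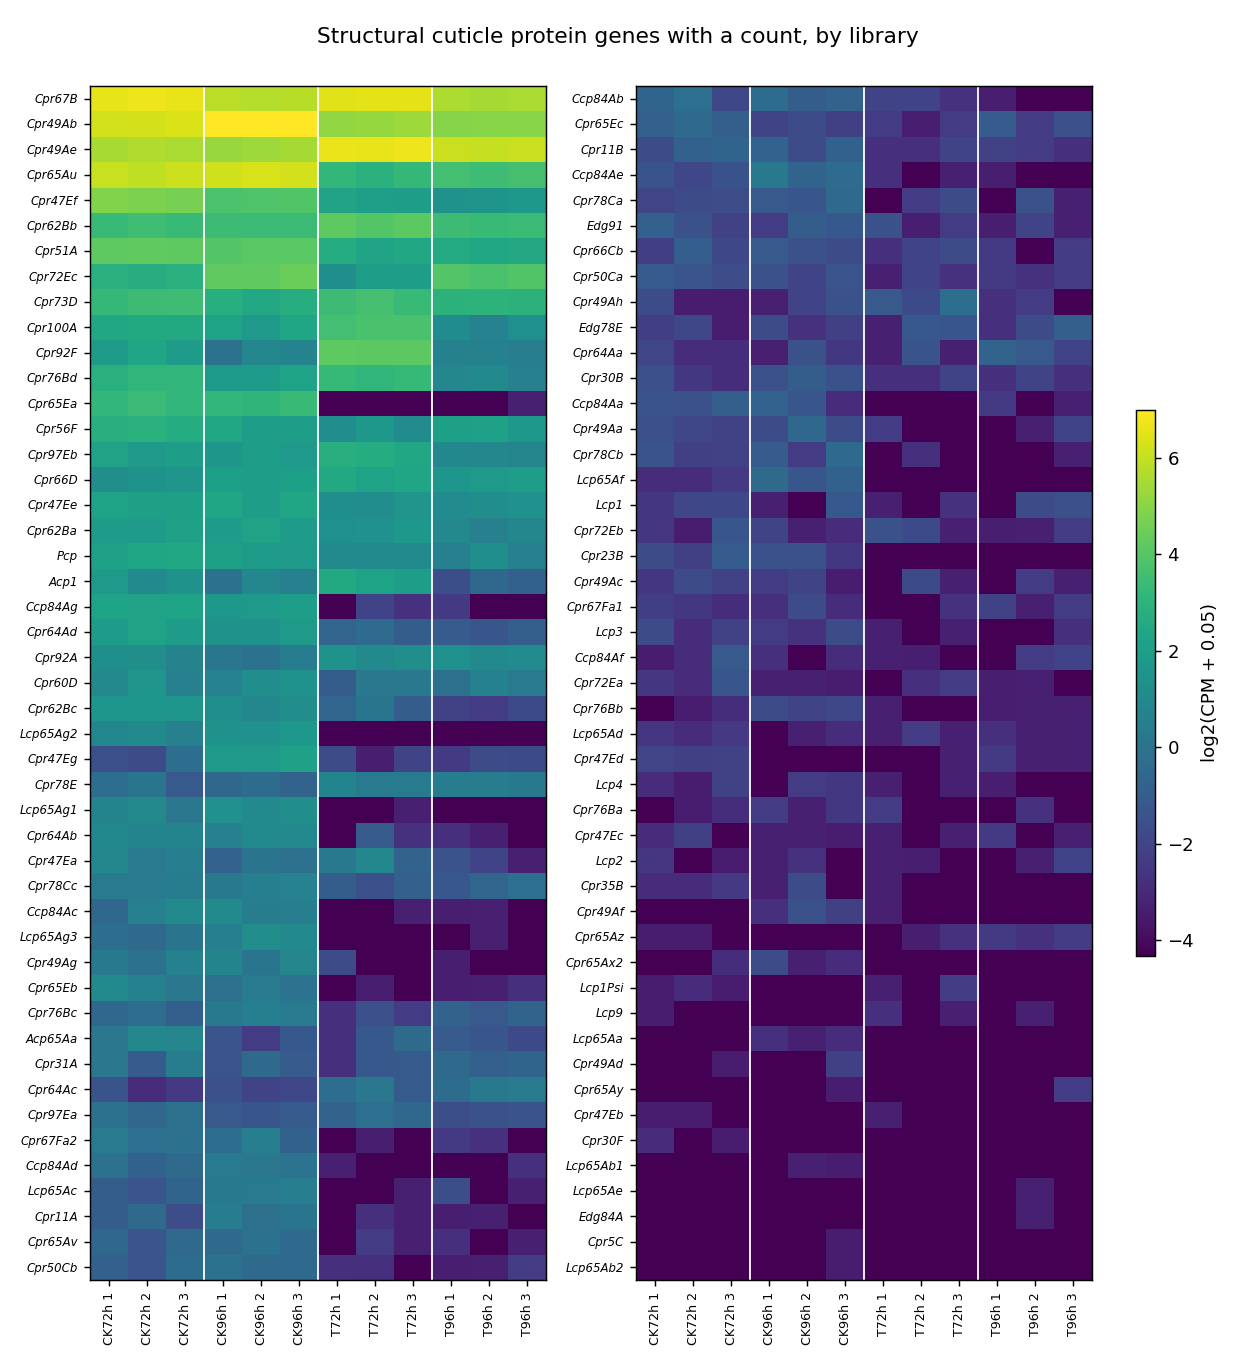
Level of each structural cuticle protein gene with a count, by library, as log2(CPM + 0.05). Columns are the 12 libraries, split by white lines into CK72h, CK96h, T72h and T96h, and rows are ordered by mean level; the few genes at the top carry most of the transcripts, and many rows are dark in the 6 erythritol libraries alone.

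The sum was carried by a few genes. The 8 with the highest mean over all libraries made up 353 of the 465 CPM in CK72h and 191 of the 233 CPM in T96h. These 8 include Cpr62Bb and not Cpr92F, unlike the 8 of highest level in any group that are described below. The 41 genes with a mean of 0.1 to 1 CPM summed to 24.5 ± 1.09 CPM in CK72h but 7.02 ± 1.34 CPM in T72h, and to 27.8 ± 0.135 CPM in CK96h and 6.57 ± 0.20 CPM in T96h. The 20 genes with a mean of 1 to 10 CPM summed to 86.4 ± 3.51 CPM in CK72h and 83.8 ± 1.86 CPM in T72h. Rises and falls offset each other in that sum. At 72 h 5 of the 20 were called lower and 1 higher, beside 8.92% and 3.98% of all genes tested. In group means Cpr92F went from 4.11 CPM in CK72h to 17.9 CPM in T72h, and Cpr65Ea from 9.42 to 0 CPM. At 96 h the same 20 genes stood at 70.3 ± 4.16 CPM in CK96h and 34.5 ± 0.902 CPM in T96h. The 31 genes under 0.1 CPM summed to 1.32 ± 0.443 CPM in CK72h, 0.598 ± 0.191 CPM in T72h, 1.31 ± 0.149 CPM in CK96h and 0.76 ± 0.106 CPM in T96h. Whether these bands differ from each other was not tested.

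Per length, the leading gene of control flies was not that of erythritol-fed flies. In CPM per kb of exon, Cpr65Au stood first in CK72h at 125, before Cpr67B at 98.1 and Cpr49Ab at 91.0. In CK96h the order was Cpr49Ab at 158, Cpr65Au at 143 and Cpr67B at 54.7. In T72h Cpr67B led at 90.8, followed by Cpr49Ae at 86.1 and Cpr49Ab at 44.8, and in T96h Cpr49Ae led at 56.6, followed by Cpr67B at 46.6 and Cpr49Ab at 36.6. Cpr65Au, a gene of region 65A, took rank 5 in T72h at 16.4 and rank 4 in T96h at 22.6.

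Cpr49Ab (FBgn0050042, 2R:12378440-12379396), a chitin-binding cuticle protein gene of region 49A, read 74.0, 77.5 and 81.2 CPM in CK72h, 138, 140 and 125 CPM in CK96h, 36.2, 37.2 and 41.0 CPM in T72h, and 30.7, 31.3 and 31.6 CPM in T96h. Control libraries lay above erythritol libraries at both times with no overlap. The log2 fold change was -1.02 (SE 0.0531, adjusted p = 4.23e-15) at 72 h, under the fold threshold, and -2.11 (SE 0.0529, adjusted p = 1.16e-21) at 96 h, a called fall. Cpr49Ae (FBgn0033728, 2R:12402216-12405108), a neighbour in the same region, read 45.4, 50.3 and 46.7 CPM in CK72h and 102, 99.6 and 105 CPM in T72h. At 96 h it read 38.4, 40.5 and 44.1 CPM in controls and 69.0, 64.9 and 67.3 CPM on erythritol. Here the erythritol libraries were the higher ones, with log2 fold changes of 1.11 (SE 0.0486, adjusted p = 1.38e-16) and 0.71 (SE 0.0515, adjusted p = 3.51e-12), both under the fold threshold. Region 49A as a whole therefore summed to 127 ± 4.82 CPM in CK72h but 141 ± 5.29 CPM in T72h, and to 178 ± 5.45 CPM in CK96h and 98.5 ± 1.77 CPM in T96h.

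Cpr67B (FBgn0035985, 3L:9404797-9406174) followed time more than diet. It read 94.2, 104 and 98.6 CPM in CK72h and 89.6, 93.9 and 91.6 CPM in T72h, but 56.3, 53.8 and 55.5 CPM in CK96h and 48.8, 44.9 and 47.5 CPM in T96h. Both 72 h groups lay above both 96 h groups, and neither diet effect passed the fold threshold, at -0.11 (adjusted p = 0.0196) and -0.23 (adjusted p = 0.000115) on the log2 scale.

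Cpr65Au (FBgn0042119, 3L:6131242-6132109) had the largest fold difference by diet among the 8 genes of highest level in any group. It read 66.0, 59.8 and 71.0 CPM in CK72h and 9.11, 7.54 and 9.18 CPM in T72h. At 96 h it read 73.0, 78.5 and 74.5 CPM in controls and 12.1, 11.0 and 12.5 CPM on erythritol. The fall was called at both times, with log2 fold changes of -2.93 (SE 0.0755, adjusted p = 1.65e-21) and -2.66 (SE 0.0705, adjusted p = 3.34e-21). Of its 526 exon bases, 491 overlap the antisense transcript asRNA:CR46005, which has 1 count over all 12 libraries. The library kit did not mark strand, and which tool counted the reads is not given in the sources used here. Reads of such pairs therefore cannot be told apart.

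Cpr47Ef (FBgn0033603, 2R:11266915-11272575) and Cpr51A (FBgn0033942, 2R:14512559-14515211), 2 further chitin-binding cuticle protein genes, were lower on erythritol as well. In CPM, Cpr47Ef read 28.9, 26.8 and 25.4 in CK72h, 4.81, 4.13 and 4.01 in T72h, 13.8, 14.6 and 15 in CK96h, and 2.76, 2.82 and 3.28 in T96h. Its log2 fold changes were -2.65 (SE 0.0931, adjusted p = 1.31e-18) and -2.29 (SE 0.109, adjusted p = 6.76e-16). Both falls were called, and in controls the level at 96 h was also below that at 72 h without passing the fold threshold. Cpr51A stood at 18.5 ± 0.292 and 16.8 ± 0.944 CPM in CK72h and CK96h and at 5.55 ± 0.744 and 5.66 ± 0.277 CPM in T72h and T96h. Its log2 fold changes were -1.74 (adjusted p = 8.09e-15) and -1.57 (adjusted p = 7.78e-14). The call at 96 h was lost without T72h replicate 3, at -1.46, and with upper-quartile scaling, just under the threshold.

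**Figure D2:**
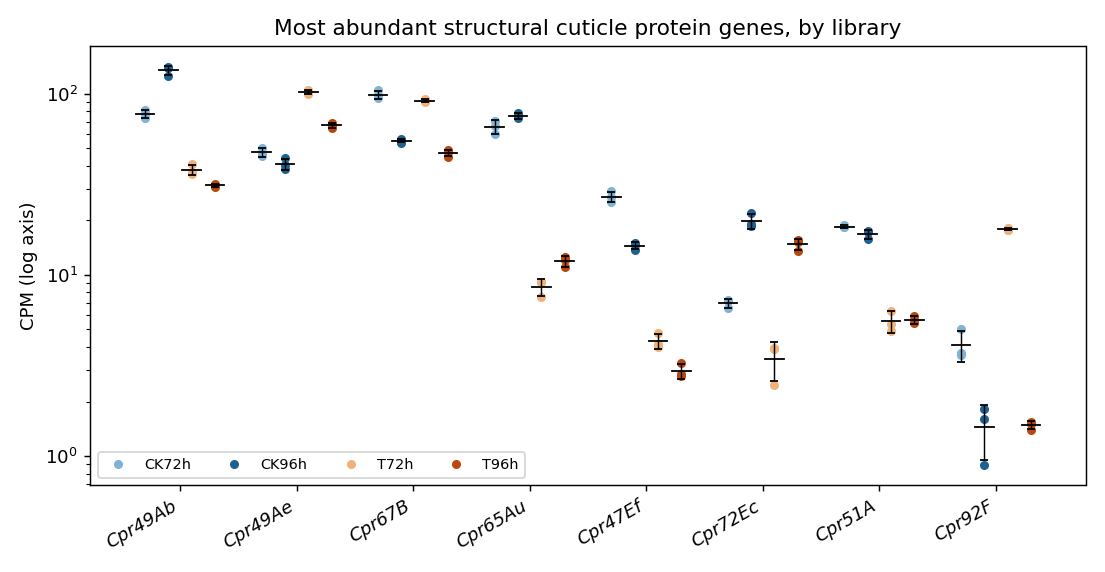
CPM (log axis) of the 8 genes with the highest level in any group, by library. Points are libraries and bars mean ± SD (n = 3) in CK72h, CK96h, T72h and T96h; Cpr65Au, Cpr47Ef and Cpr51A lie lower in both erythritol groups, Cpr49Ae lies higher, Cpr67B is split by time, and Cpr92F stands out in T72h at 17.9 CPM.

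Of the 100 genes, 51 had enough counts to be tested, and 49 did not. The filter keeps a gene that is high in 1 group only, so counts over the 51 describe those genes and not the whole set. At 72 h, 28 of the 51 were down-regulated on erythritol (called lower), against 8.92% of all genes tested, and 2 were up-regulated, against 3.98%. Their median log2 fold change was -1.69, where that of all genes tested was -0.05. At 96 h, 27 were down-regulated (7.15% of all genes) and 1 up-regulated (3.97%), with a median of -1.57 where all genes had -0.02. Setting the genes with a group at 0 to their lower bounds, 3 genes at 72 h and 2 at 96 h, left the medians at these values. It could not have moved them, since those genes lay below the median either way. Without T72h replicate 3 the counts were 30 lower at 72 h and 26 lower at 96 h.

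The comparisons at 72 h and 96 h share no library, and 23 genes were called lower in both, which is 23 of the 28 at 72 h and 23 of the 27 at 96 h. Of all genes tested, 4.77% were called lower in both. Cpr64Ac was called higher in both. Called lower at 72 h alone were Acp65Aa, Cpr31A, Cpr65Ec, Cpr76Bc and Cpr78Cc, and called lower at 96 h alone were Acp1, Cpr47Ea, Cpr47Eg and Cpr49Ab. Cpr92F was called higher at 72 h alone. Of the genes named here and below, Ccp84Af, Cpr31A, Cpr47Ea, Cpr64Ab, Cpr64Ad, Cpr76Bc, Cpr78Cc and Lcp65Ad lie outside the rule for named genes and were chosen after their values were seen. On the adjusted p alone, 37 were lower and 9 higher at 72 h, where 42.1% and 37.3% of all genes tested passed in these directions. At 96 h, 38 were lower and 5 higher, beside 41.2% and 38.3% of all genes.

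**Figure D3:**
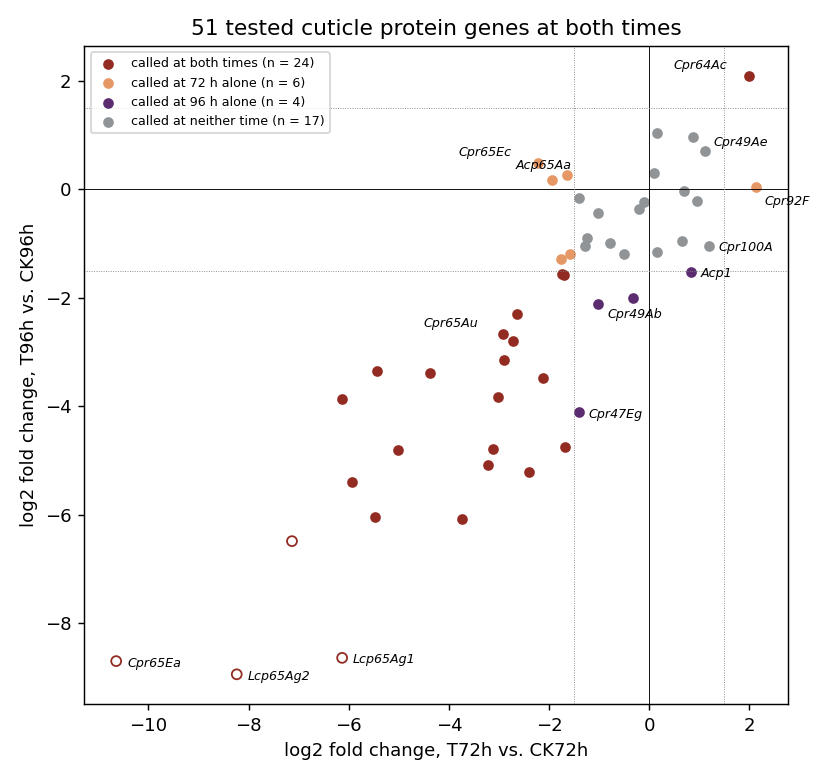
Log2 fold change of the 51 tested genes, T72h vs. CK72h on the x axis and T96h vs. CK96h on the y axis. Each point is a gene coloured by when it was called; dotted lines mark the fold threshold of 1.5 on the log2 scale and open circles are genes without a count in T72h or T96h, whose fitted values are no bounds. Most called genes lie in the lower left, with Cpr64Ac alone in the upper right.

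The 4 larval cuticle protein genes of region 65A that could be tested, Lcp65Ac and the Lcp65Ag genes, were called lower at both times. They had few or no counts in the erythritol libraries and passed the low-count filter through the control libraries alone. This tally therefore describes those 4 and not the other Lcp genes. Of all genes tested, 4.77% were called lower at both times. Lcp65Ag2 (FBgn0020637, 3L:6132990-6133593) read 1.76, 2.08 and 1.47 CPM in CK72h and 2.78, 2.63 and 3.20 CPM in CK96h, and had no count in any of the 6 erythritol libraries. With a floor of 3 counts over the group, it was at least 35.7-fold lower at 72 h and at least 59.7-fold lower at 96 h. Lcp65Ag1 (FBgn0020638, 3L:6134697-6135274) read 1.67, 1.95 and 1.07 CPM in CK72h and 2.59, 2.08 and 2.33 CPM in CK96h, and had 1 count in T72h and none in T96h. It was 94.9-fold lower at 72 h (95% interval 16.7 to 3784, on 109 and 1 counts) and at least 48.2-fold lower at 96 h. Lcp65Ag3 (FBgn0086611, 3L:6130386-6130989) had 57 counts in CK72h and none in T72h, and 124 counts in CK96h and 1 in T96h. These are a fall of at least 16.6-fold and a 122-fold fall (95% interval 21.5 to 4855). All 6 falls were called, and such limits take in the error of counting and nothing else.

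The 3 Lcp65Ag genes are near-identical copies whose reads may have been split in any way among them, and 543 bases of Lcp65Ag3 also overlap asRNA:CR46005. Summed to 1 feature, an alternative chosen after the data were seen, they had 289 counts in CK72h against 1 in T72h and 453 in CK96h against 1 in T96h. The ratios were 252-fold (95% interval 44.8 to 9977) and 445-fold (79.5 to 17633). In the edgeR fit the summed feature was called lower at both times (adjusted p = 9.74e-14 and 9.48e-16), as the single copies were. Lcp65Ac (3L:6144819-6145393), a further larval cuticle protein gene, read 0.46, 0.347 and 0.578 CPM in CK72h, had 1 count in T72h, read 1.14, 1.16 and 1.38 CPM in CK96h, and had 7 counts in T96h. Its log2 fold change at 96 h was -3.39 (SE 0.515, adjusted p = 1.78e-06), a called fall whose SE lies below counting error. At 72 h Lcp65Ac was 27.9-fold lower (95% interval 4.66 to 1135), also called. The 17 genes with an Lcp symbol summed to 5.42 ± 0.353 CPM in CK72h but 0.384 ± 0.184 CPM in T72h, and to 9.55 ± 0.90 CPM in CK96h and 0.533 ± 0.129 CPM in T96h. Lcp65Ad, which was not tested, had 8 counts in CK72h and 5 in T72h, and 3 in CK96h and 4 in T96h. These are too few to tell whether it moved. Of the 17, 13 were not tested, among them Lcp1, Lcp2, Lcp3 and Lcp4, the larval cuticle proteins of the third larval stage, at 14 to 37 counts over all libraries.

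Region 65A as a whole summed to 72.6 ± 5.31 CPM in CK72h but 9.24 ± 0.966 CPM in T72h, and to 85.7 ± 2.61 CPM in CK96h and 12.6 ± 0.901 CPM in T96h. Most of this was Cpr65Au. All 7 tested genes of the region were called lower at 72 h and 6 of them at 96 h, Acp65Aa being the exception. Over all genes tested these shares were 8.92% and 7.15%. All but Cpr65Au passed the low-count filter through control libraries alone, so these tallies describe the tested genes and not the region.

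In the Ccp84A cluster of cuticle genes in region 84A, all 5 tested genes were called lower at both times, beside 4.77% of all genes tested. These 5 passed the low-count filter through the control libraries alone, so the tally describes them and not the cluster. The 7 Ccp84 genes of the cluster summed to 8.12 ± 0.655 CPM in CK72h but 0.379 ± 0.0667 CPM in T72h, and to 8.02 ± 0.978 CPM in CK96h and 0.32 ± 0.111 CPM in T96h. Control sums were 21.4 times and 25.1 times the erythritol sums. Ccp84Ag (FBgn0004777, 3R:6686728-6688039) carried more than any other of them, reading in CPM 4.73, 4.52 and 4.71 in CK72h, 0, 0.192 and 0.101 in T72h, 3.28, 3.44 and 3.98 in CK96h, and 0.141, 0 and 0 in T96h. No erythritol library came near a control library. Its log2 fold change was -5.47 (SE 0.38, adjusted p = 1.58e-12) at 72 h, where T72h held 6 counts and the SE lies below counting error. At 96 h Ccp84Ag was 74.1-fold lower (95% interval 25.0 to 362, on 226 and 3 counts).

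The other tested genes of the cluster were scarcer and moved the same way. Ccp84Ac had 94 counts in CK72h against 1 in T72h and 100 in CK96h against 2 in T96h. Ccp84Ad had 50 against 1 and 67 against 2 counts. Ccp84Ae had 20 against 3 and 51 against 1 counts. All 3 were called lower at both times. Ccp84Ab had 37 counts in CK96h against 1 in T96h, 36.4-fold lower (95% interval 6.14 to 1475). At 72 h its log2 fold change was -1.69 (SE 0.538, adjusted p = 0.0063), and that call was lost without CK72h replicate 2 (-1.27, adjusted p = 0.0595) and without T72h replicate 3 (-1.40, adjusted p = 0.0354). Ccp84Aa and Ccp84Af were not tested, and Ccp84Af had 12 counts in CK72h against 2 in T72h but 4 in CK96h against 7 in T96h. Edg84A, at the end of the same region, had 1 count in all.

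**Figure D4:**
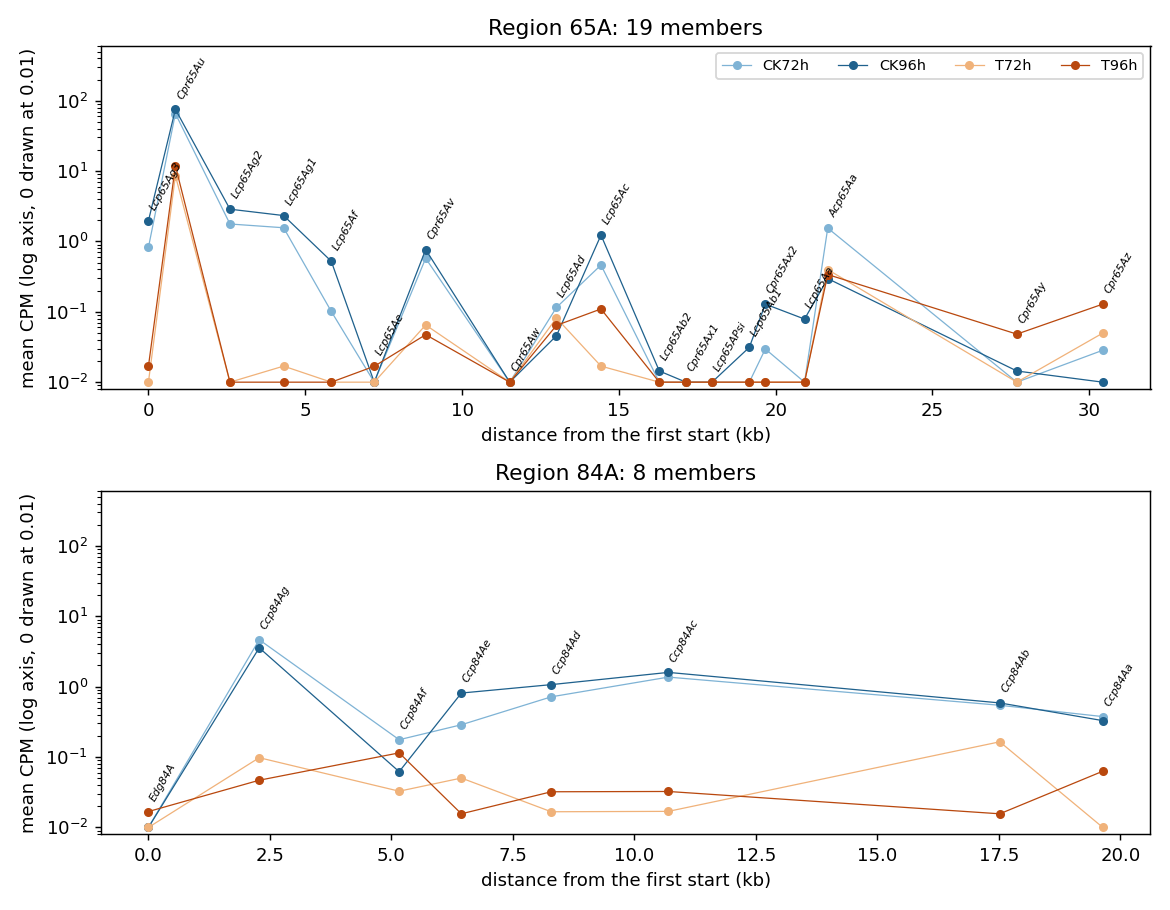
Mean CPM (log axis, 0 drawn at 0.01) of the genes of region 65A and region 84A against distance from the first gene start in kb. Lines join the genes in order for CK72h, CK96h, T72h and T96h and carry no data between points; the control lines lie above the erythritol lines at the genes of both regions called lower at both times, CK96h lies under T72h and T96h at Acp65Aa, and the gap closes at genes near the floor of 1 count.

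Cpr65Ea and Cpr65Eb, a pair of chitin-binding cuticle protein genes in region 65E, were among the steepest falls too. Cpr65Ea (FBgn0035735, 3L:7086003-7086608) read 8.85, 8.46 and 9.98 CPM in CK96h, and its 3 T96h libraries held 1 count, a 566-fold fall (95% interval 101 to 22411). At 72 h it had 654 counts in CK72h and none in T72h. Cpr65Eb (FBgn0035736, 3L:7087713-7088787) had 109 counts in CK72h against 1 in T72h, 94.9-fold lower (95% interval 16.7 to 3784). At 96 h it read 0.845, 1.27 and 0.951 CPM in controls and 0.0468, 0.0504 and 0.0963 CPM on erythritol, a difference of -3.86 on the log2 scale (SE 0.554, adjusted p = 7.43e-07). T96h held 4 counts of Cpr65Eb, and this SE lies below counting error. Cpr49Ag (2R:12407793-12408523) had 94 counts in CK96h against 1 in T96h, 92.4-fold lower (95% interval 16.2 to 3689). At 72 h it read 1.13, 0.912 and 1.51 CPM in controls and 0.25, 0 and 0 CPM on erythritol (log2 fold change -3.75, SE 0.596, adjusted p = 3.63e-06). All 5 of its T72h counts lay in replicate 1, and this SE too lies below counting error. Cpr49Ag thus fell in the region where its neighbour Cpr49Ae lay higher on erythritol.

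The remaining clusters gave mixed pictures. Region 47E summed to 33.7 ± 2.11 CPM in CK72h but 8.28 ± 0.451 CPM in T72h, and to 23.7 ± 1.40 CPM in CK96h and 5.88 ± 0.335 CPM in T96h. Region 64A stood at 6.03 ± 0.326 and 1.67 ± 0.789 CPM at 72 h and at 5.19 ± 0.59 and 1.89 ± 0.0707 CPM at 96 h. It held the 1 gene called higher at both times, Cpr64Ac, beside 2 called lower at both, Cpr64Ab and Cpr64Ad. Region 76B did not differ by diet in the same way at both times, with 9.03 ± 0.982 CPM in CK72h and 9.51 ± 0.415 CPM in T72h, but 5.62 ± 0.619 CPM in CK96h and 2.41 ± 0.278 CPM in T96h.

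Among the 51 tested genes, 2 were up-regulated on erythritol. Cpr92F (FBgn0038819, 3R:20669571-20672821) read 3.60, 5.04 and 3.69 CPM in CK72h and 18.2, 17.7 and 17.8 CPM in T72h, a difference of 2.12 on the log2 scale (SE 0.128, adjusted p = 8.49e-14). At 96 h it read 0.895, 1.82 and 1.60 CPM in controls and 1.55, 1.51 and 1.40 CPM on erythritol, a difference of 0.04 on the log2 scale (SE 0.243, adjusted p = 0.883). The T72h libraries stood apart from the 9 others. Cpr64Ac (FBgn0035512, 3L:4211964-4212915) read 0.335, 0.0868 and 0.133 CPM in CK72h and 0.801, 1.06 and 0.406 CPM in T72h, and 0.298, 0.203 and 0.216 CPM in CK96h and 0.749, 1.16 and 1.20 CPM in T96h. Its groups did not overlap at either time, and its log2 fold changes were 1.99 (SE 0.481, adjusted p = 0.000614) and 2.09 (SE 0.441, adjusted p = 0.000137). This gene is scarce, with a group mean of at most 1.04 CPM.

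The effect of erythritol differed between 72 h and 96 h for some of these genes, as tested by the difference of the 2 log2 fold changes (96 h minus 72 h). This difference was called lower for 7 genes, where 2.32% of all genes tested were, and higher for 3, where 19% were. Its median was -0.12 over the 51 genes and -0.22 over all genes tested. The 10 were called on the same threshold as above, and their number does not set the cuticle genes apart from all genes tested.

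Cpr100A, Cpr97Eb and Acp1 read higher on erythritol at 72 h and lower at 96 h. Cpr100A (3R:30867521-30869184) read 5.56, 5.82 and 5.87 CPM in CK72h and 12.4, 13.6 and 13.5 CPM in T72h, and 4.67, 3.44 and 4.93 CPM in CK96h and 2.25, 1.56 and 2.55 CPM in T96h. The groups did not overlap at either time, the log2 fold changes were 1.19 and -1.04, and their difference was -2.23 (SE 0.21, adjusted p = 7.68e-10). Cpr97Eb (3R:27089704-27091130) stood at 3.97 ± 0.586 CPM in CK72h, 6.21 ± 0.66 CPM in T72h, 3.52 ± 0.428 CPM in CK96h and 1.81 ± 0.0701 CPM in T96h. The difference of its log2 fold changes was -1.60 (SE 0.23, adjusted p = 8.95e-07), which fell under the fold threshold when libraries were scaled by their totals (-1.29) or by upper quartiles (-1.40).

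Acp1 (FBgn0014454, 2L:7740562-7741537), an adult cuticle protein gene, read 3.35, 2.08 and 2.80 CPM in CK72h and 5.91, 4.76 and 4.06 CPM in T72h. At 96 h it read 0.895, 1.82 and 1.47 CPM in controls and 0.281, 0.656 and 0.53 CPM on erythritol. The groups did not overlap at either time, and they lay in opposite order. Its log2 fold change was 0.84 (SE 0.207, adjusted p = 0.000779) at 72 h and -1.52 (SE 0.364, adjusted p = 0.000549) at 96 h, and the difference was -2.35 (SE 0.417, adjusted p = 1.75e-05). The call at 96 h lies at the threshold. It was lost without CK96h replicate 2 (-1.30), CK96h replicate 3 (-1.47), T72h replicate 3 (-1.41) or T96h replicate 1 (-1.23), and with library totals (-1.46) or upper quartiles (-1.45).

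Acp65Aa (FBgn0020765, 3L:6152050-6152745), the adult cuticle protein gene of region 65A, went the other way. It read 1.09, 1.82 and 1.73 CPM in CK72h but 0.10, 0.384 and 0.71 CPM in T72h, a difference of -1.94 on the log2 scale (SE 0.394, adjusted p = 8.79e-05). Without T72h replicate 1 this was -1.49, just under the fold threshold. At 96 h it read 0.348, 0.152 and 0.389 CPM in controls and 0.422, 0.353 and 0.241 CPM on erythritol, and these overlap (log2 fold change 0.17, adjusted p = 0.789). Only CK72h stood high, and the difference between the times was 2.11 (SE 0.705, adjusted p = 0.00878). The adult cuticle protein genes Acp1 and Acp65Aa therefore did not move together.

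Cpr65Ec (3L:7093204-7093841) had the same shape as Acp65Aa, with 0.562 ± 0.115 CPM in CK72h, 0.117 ± 0.0596 CPM in T72h, 0.208 ± 0.041 CPM in CK96h and 0.287 ± 0.135 CPM in T96h. The difference of its log2 fold changes was 2.70 (SE 0.753, adjusted p = 0.00226). Cpr47Eg (2R:11277957-11278445) was high in CK96h alone, reading 3.38, 3.29 and 4.41 CPM there against 0.0481 to 0.80 CPM in the 9 other libraries. Its log2 fold change was -4.11 (SE 0.373, adjusted p = 2.57e-10) at 96 h and -1.40 (SE 0.572, adjusted p = 0.0283) at 72 h, a difference of -2.70 (SE 0.834, adjusted p = 0.00506). Without T72h replicate 1 the difference was -2.30 (adjusted p = 0.0505), no longer called. Its value at 72 h lay under the fold threshold, and it passed at -1.52 to -1.80 without CK72h replicate 1, CK72h replicate 2, T72h replicate 1 or T72h replicate 3, and at -1.65 with library totals and -1.53 with upper quartiles.

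**Figure D5:**
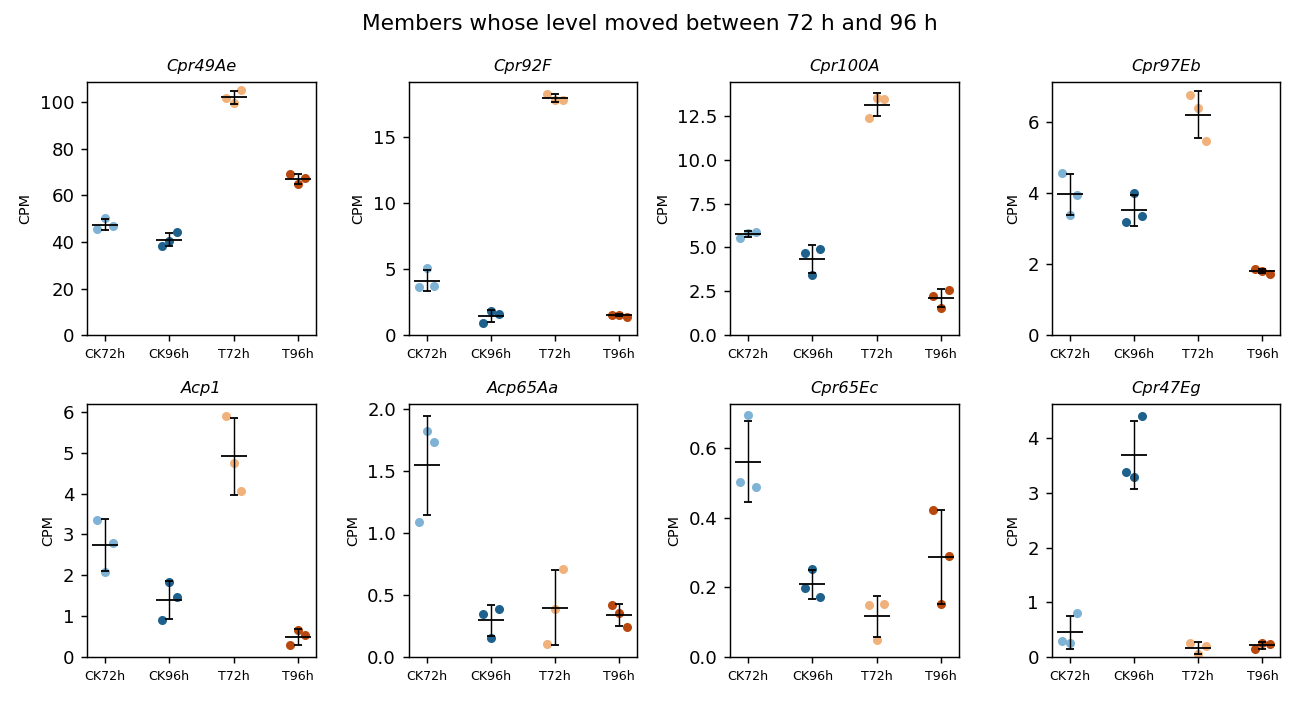
CPM of 8 genes by library in CK72h, CK96h, T72h and T96h, points being libraries and bars mean ± SD (n = 3). Cpr49Ae, Cpr92F, Cpr100A, Cpr97Eb and Acp1 are at their highest in T72h, Acp65Aa and Cpr65Ec in CK72h, and Cpr47Eg in CK96h.

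Between 72 h and 96 h in control flies, few of the genes passed the fold threshold. Of the 51, 2 were called higher, where 1.56% of all genes tested were, and 2 lower, where 4.07% were. Cpr47Eg rose by 3.04 on the log2 scale (SE 0.313, adjusted p = 3.25e-09) and Acp65Aa fell by 2.34 on the log2 scale (SE 0.413, adjusted p = 1.48e-05). The other calls lay at the threshold. Cpr92F had -1.5 (SE 0.194, adjusted p = 1.44e-07), which was lost without CK72h replicate 2 (-1.33) or CK96h replicate 1 (-1.26) and reached -1.49 to -1.5, just under the threshold, without T96h replicate 1, without T96h replicate 3 or with no filter on low counts.

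Cpr72Ec (FBgn0036619, 3L:16365894-16367340) encodes a protein of the corneal lens. It read 7.15, 6.56 and 7.29 CPM in CK72h and 19.0, 18.5 and 22.0 CPM in CK96h, and 2.45, 3.89 and 3.96 CPM in T72h and 15.6, 13.5 and 15.2 CPM in T96h. All libraries at 96 h lay above all libraries at 72 h, and at each time the erythritol libraries lay below the controls. The log2 fold change with time was 2.10 (SE 0.129, adjusted p = 5.24e-13) on erythritol. In controls it was 1.51 (SE 0.105, adjusted p = 2.35e-12), which was 1.32 to 1.46 under the other scalings and DESeq2, 1.40 with the control groups alone, and 1.46, 1.43 and 1.41 without CK72h replicate 2, CK96h replicate 3 or T72h replicate 3, so this call depends on those settings. The diet effect on Cpr72Ec was -1.02 at 72 h (adjusted p = 5.33e-07) and -0.43 at 96 h (adjusted p = 0.000249), under the fold threshold at both times. In the same libraries the photoreceptor opsin ninaE read 2488 ± 43.4 CPM in CK72h but 678 ± 30.2 CPM in T72h, and 2095 ± 46.7 CPM in CK96h but 1675 ± 25.9 CPM in T96h, and its part in this result was not tested.

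In erythritol-fed flies, 8 of the 51 genes were called lower at 96 h than at 72 h, where 0.744% of all genes tested were, and Cpr72Ec alone was called higher, where 0.653% were. The largest of these falls was that of Cpr92F, at -3.59 (SE 0.157, adjusted p = 8.72e-16), followed by Acp1 at -3.32 (SE 0.292, adjusted p = 4.84e-10). Ccp84Ab had -2.96 (adjusted p = 0.0289), on 10 counts in T72h and 1 in T96h, a ratio of 10.2 (95% interval 1.46 to 444), and that call was lost without T72h replicate 1, T72h replicate 2, T96h replicate 2 or T96h replicate 3 (adjusted p = 0.0686, 0.0707, 0.0905 and 0.0975). Cpr100A had -2.62 (SE 0.146, adjusted p = 8.19e-14) and Cpr97Eb -1.78 (SE 0.166, adjusted p = 1.46e-09).

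The ecdysone-dependent genes and the pupal gene gave less. Edg78E, Edg84A and Edg91 had too few counts to be tested and summed to 0.471 ± 0.228 CPM in CK72h, 0.506 ± 0.0934 CPM in CK96h, 0.43 ± 0.0784 CPM in T72h and 0.392 ± 0.218 CPM in T96h, overlapping in all 4 groups. Pcp, the pupal cuticle protein gene, read 4.43, 4.99 and 5.25 CPM in CK72h and 2.0, 2.02 and 2.03 CPM in T72h, and 4.23, 3.60 and 3.46 CPM in CK96h and 1.5, 2.47 and 1.49 CPM in T96h. The groups did not overlap, but at -1.27 (adjusted p = 5.32e-07) and -1.05 (adjusted p = 2.28e-05) on the log2 scale Pcp was not called. Pcp and the genes named in the next sentence fall outside the rule for named genes and were chosen after their values were seen. Cpr62Bb and Cpr73D, at 10.4 to 17.1 CPM and 6.28 to 11.1 CPM in the group means, were called in no comparison, like 13 of the 51 tested genes and 68% of all genes tested.

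The 49 genes that could not be tested held 1083 counts over all libraries. They summed to 4.56 to 5.47 CPM in CK72h libraries and 2.35 to 3.20 CPM in T72h libraries, and to 5.92 to 6.57 CPM in CK96h libraries and 2.2 to 3.03 CPM in T96h libraries. The groups did not overlap at either time, and the control means were 1.90 and 2.29 times those on erythritol. Lcp65Af had 33 counts in CK96h against 0 in T96h, at least 10.8-fold lower, Cpr23B had 20 counts in CK72h against 0 in T72h, at least 5.81-fold lower, and Ccp84Aa had 26 against 0, at least 7.55-fold lower. Cpr49Ah went the other way at 72 h, with 8 counts in CK72h and 29 in T72h. These 4 were chosen after their values were seen.

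Genes that build, degrade and tan the chitin matrix were read from lists beside the cuticle proteins. For these lists and those that follow, 8.92% of all genes tested were called lower and 3.98% higher at 72 h. At 96 h these shares were 7.15% and 3.97%. Of 17 tested genes of chitin synthesis and assembly, 4 were called lower at each time, with medians of -0.46 and -0.59. Among them obst-A, a chitin-binding protein that protects new cuticle, read 14.5 ± 1.0 CPM in CK72h but 1.29 ± 0.0764 CPM in T72h (log2 fold change -3.48, adjusted p = 1.11e-16), and the epidermal chitin synthase gene kkv read 11.5 ± 0.874 and 3.31 ± 0.306 CPM (-1.79, adjusted p = 8.14e-13). At 96 h kkv stood at 3.79 ± 0.16 and 2.86 ± 0.198 CPM, a log2 fold change of -0.41 that was not called. Of 18 genes of chitin breakdown, Cht4 and Cht5, both chitinase genes, were called higher at both times, Cht4 with 4.65 ± 0.611 CPM in CK72h and 80.8 ± 1.49 CPM in T72h (4.12, adjusted p = 2.23e-25). In that list 1 gene was called lower at 72 h and 2 at 96 h, with medians of 0.06 and -0.03.

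Of 12 tested genes of cuticle tanning, which hardens and colours the cuticle, 2 were called lower and 1 higher at 72 h, and 3 lower at 96 h. The medians of this list were -0.0016 and -0.44 on the log2 scale. The dopa decarboxylase relative amd fell by 2.55 on the log2 scale at 72 h (adjusted p = 1.2e-12) and by 4.41 at 96 h (adjusted p = 1.54e-17), while Ddc and ple, the enzymes that make dopamine, were called at neither time. Of 10 tested zona pellucida proteins of the apical matrix, which tie the epidermis to the cuticle, 5 were called lower at each time, among them dyl (-4.79 and -3.49) and nyo (-4.93 and -3.25). Of the 5 tested proteins of the list of other cuticle and lens proteins, 2 were called lower at 72 h and 5 at 96 h, Vajk1 at -3.53 and -3.52. Of 14 tested moulting regulators, 3 were called lower and 1 higher at 72 h and 2 lower and 1 higher at 96 h. Their median log2 fold changes were 0.09 and -0.30. The ecdysone-induced nuclear receptors Hr3 and Hr4 were called lower at both times (Hr4 -2.43 and -1.99). The ecdysone-induced genes Eip74EF, Eip75B and Eip93F read higher at 72 h, at 0.58 to 0.96, and were called at neither time. Cht5, Ddc, ple, Hr3, Eip74EF, Eip75B, Eip93F and ninaE were named after their values were seen.

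Lists chosen as markers of tissues and stages other than adult epidermis differed in how far they moved in these libraries. The 15 eggshell genes of ovarian follicle cells that were matched summed to 4105 to 4236 CPM in CK72h and 560 to 605 CPM in T72h, and to 7837 to 8801 CPM in CK96h and 6.25 to 6.98 CPM in T96h, with 12 called lower at 72 h and all 15 at 96 h. Embryo segmentation genes, of which 17 were matched, summed to 110 to 112 CPM in CK72h, 90.3 to 96.1 CPM in T72h, 98.8 to 104 CPM in CK96h and 70.3 to 75.4 CPM in T96h, and 1 and 2 of the 15 tested were called lower. Whether these segmentation genes mark embryos alone in such samples was not tested. The 12 larval markers summed to 6.34 to 6.94, 1.35 to 2.02, 7.65 to 9.5 and 1.64 to 2.42 CPM in CK72h, T72h, CK96h and T96h, with the glue genes Sgs3, Sgs4, Sgs5, Sgs7 and Sgs8 at 1 to 8 counts in all and the larval serum gene Lsp1beta lower at both times (-2.92 and -3.12). Of the 9 adult muscle and eye markers, 2 were called higher and 4 lower at 72 h, and 1 higher and 1 lower at 96 h. Their median log2 fold changes were -1.40 and 0.17. The part of these tissues in the levels of the cuticle protein genes was not tested, and whole-body RNA does not show which tissue a transcript came from.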

How the data were processed

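Poly(A) RNA of whole flies was sequenced from 12 libraries, made with a kit that does not mark strand. Per the labels and the study's methods, the authors trimmed adapters, dropped reads of low quality and aligned the rest to a FlyBase release 6 genome with HISAT2, and the submitters' processing notes also name CASAVA 1.8. The deposited values are raw counts per gene, whole numbers with no scaling; the tool that counted them is not given in the sources used here. Symbols, positions and exon lengths were taken from the Ensembl annotation of the same assembly (dm6).

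Samples were grouped by the treatment and day in their labels. Counts were analysed with edgeR 4.0.16 in R 4.3.3: genes were filtered on the groups, libraries scaled by TMM factors, and a quasi-likelihood model of the 4 group means gave 5 contrasts, with Benjamini-Hochberg adjustment over the 13179 genes tested. Calls required a shift of 1.5 or more on the log2 scale and an adjusted p below 0.05. SE is the size of the log2 fold change over the root of F, and for genes with few counts in a group it can lie below counting error. Genes without a count in a group were set at a floor of 3 counts over the group, and 1 to 3 counts were given an exact interval at the 95% level. Alternatives were other scalings, no filter, only the groups compared, DESeq2 1.42.0, the replicate number as a block, the adjusted p alone, and leaving out each library. No library was a copy of another, since paired libraries of a group differed by a chi-square per degree of freedom of 1.77 to 63.5.

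Named genes were the 8 of highest level in any group, the 5 largest falls and rises by diet, and the 3 by time. The 5 with the smallest adjusted p for the difference between times were also named, as were called genes with the symbols Lcp, Pcp, Ccp84, Edg or Acp. The members, lists, rules and alternatives were chosen with earlier results of these data known. List genes that no identifier matched (stw, speck, AANAT1, tyn, br, dec-1, h and wg) were not used here. Lcp65Ab1 and Lcp65Ab2, Cpr65Ax1 and Cpr65Ax2, and Cpr67Fa1 and Cpr67Fa2 are, like the Lcp65Ag genes, close copies whose single counts are uncertain.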

Additional observations from a re-analysis of the deposited data

Results flagged for a closer look

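For 10 of the 51 tested genes the effect of erythritol differed between 72 h and 96 h, by the test of the difference itself (96 h minus 72 h, on the log2 scale). This difference was called negative for 7 of the 51, where 2.32% of all genes tested were, and positive for 3, where 19% were. Since positive calls alone made up 19% over all genes tested, the count of 10 does not set these genes apart. The difference was negative for Ccp84Ab (-3.06, adjusted p = 0.023), Cpr47Eg (-2.70), Acp1 (-2.35), Cpr100A (-2.23), Cpr92F (-2.08), Cpr47Ea (-1.67, adjusted p = 0.0218) and Cpr97Eb (-1.60). It was positive for Cpr65Ec (2.70), Acp65Aa (2.11) and Cpr31A (1.91, adjusted p = 0.00989). In CPM, Cpr47Ea read 1.84, 1.26 and 1.38 in CK72h, 1.15, 1.83 and 0.558 in T72h, 0.547, 0.962 and 0.864 in CK96h and 0.328, 0.202 and 0.0482 in T96h, so its groups overlapped at 72 h and not at 96 h, and 163 of its exon bases overlap Or47a on the other strand. Cpr31A read 1.09, 0.434 and 1.29 in CK72h, 0.10, 0.384 and 0.406 in T72h, 0.348, 0.709 and 0.432 in CK96h and 0.703, 0.504 and 0.578 in T96h. For Ccp84Ab the call was lost without T72h replicate 2 (-2.94, adjusted p = 0.0504), T96h replicate 2 (-2.64, adjusted p = 0.0675) or T96h replicate 3 (-2.61, adjusted p = 0.071).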

How the results depend on the processing

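Among 92 results for named genes and 1730 alternatives, 1679 kept their direction and side of the threshold, 34 lost the call, 17 gained it and 0 turned in sign. Of 1104 that left out a library, 23 lost and 12 gained the call. The cause of these changes was not tested. Whether the replicate numbers pair the libraries cannot be settled with 3 libraries a group. The correlation of deviations was -0.043 to 0.076 over 18 same-numbered pairs, 9 of which correlated best with their own number. With the replicate number as a block the counts were 28 lower and 2 higher at 72 h, 27 and 1 at 96 h, 7 and 3 for the difference between times, 2 and 2 with time in controls and 8 and 1 on erythritol, and no call count changed.

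The counts lower on erythritol were 21 to 34 at 72 h and 25 to 39 at 96 h over other settings, and 27 to 31 and 26 to 29 without single libraries. At 72 h the median log2 fold change was -1.94 with library totals, -1.82 with upper quartiles, -1.25 with no filter (94 genes), -1.45 with only the groups compared (42 genes) and -1.81 to -1.65 without single libraries. Library totals moved the median of all genes to -0.30 and upper quartiles to -0.18. Higher counts were 1 with only the groups compared and 9 on the adjusted p alone. At 96 h the median was -1.47 with no filter, -1.79 with only the groups compared and -1.83 to -1.47 without single libraries, and 3 were higher with no filter and 5 on the adjusted p alone.

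For the difference between times the median was 0.20 with library totals, 0.081 with upper quartiles and -0.21 to 0.019 without single libraries, so its sign is not settled, and 8 were higher and 14 lower on the adjusted p alone. In controls with time 1 gene was higher with RLE size factors, library totals, upper quartiles, only the groups compared or DESeq2, 6 with no filter, 2 to 5 without single libraries and 12 on the adjusted p alone. Lower were 1 to 3 without single libraries and 18 on the adjusted p alone. The median was -0.058 with RLE, -0.20 with totals, -0.18 with upper quartiles, -0.14 with only the groups compared, -0.070 with DESeq2 and -0.12 to 0.043 without single libraries. On erythritol with time, 2 were higher with library totals or upper quartiles, 1 to 4 without single libraries and 4 on the adjusted p alone, where 17 were lower. The median was -0.10 with totals, -0.030 with no filter, -0.51 with only the groups compared, -0.31 with DESeq2 and -0.22 to -0.11 without single libraries. For the comparisons in this paragraph, the share of all genes tested that passed on the adjusted p alone was not computed. Those counts therefore have no background and do not set these genes apart. Leaving out a library changes which genes pass the filter (51 to 53 tested). Genes under 1 CPM, 23 of the 51, had a median of at most 20 counts a library and at most 54 in any.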

Other observations

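The following genes of corneal lens proteins were chosen after their values were seen. Retinin, a lens protein outside the cuticle symbols, stood at 25.5 ± 2.41 CPM in CK72h, 162 ± 7.41 CPM in CK96h, 16.5 ± 0.809 CPM in T72h and 28.3 ± 0.676 CPM in T96h. It rose with time in controls (log2 fold change 2.67, adjusted p = 2.41e-22) and was down-regulated on erythritol at 96 h (-2.51, adjusted p = 3.78e-23), but not called at 72 h (-0.63). Cpr66D, a lens protein with the chitin-binding sequence, read 2.30, 2.78 and 2.93 CPM in CK72h, 4.13, 3.85 and 4.11 CPM in CK96h, 5.91, 4.57 and 5.02 CPM in T72h and 3.04, 3.43 and 3.90 CPM in T96h. It was called in no comparison, so the lens genes Cpr72Ec, Cpr66D and retinin had 3 different patterns.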
